A study of Homo sapiens with 4 samples.

Results

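The genes ONECUT1, ONECUT2, ONECUT3, SKOR1 and SKOR2 were examined through the EZH2 peaks that touched the 30 kb on either side of their starts. They were chosen by rule from positions in the hg19 build, and the choice was made with measured values in view, because the loci of SKOR2 and ONECUT3 hold some of the widest peaks of the H3.1-WT list. The values of the H3.1-WT list are therefore a description. There were 30 such peaks of 66093 in all, 16 of 31077 in the H3.1-WT list and 14 of 35016 in the H3.1-K27M list. The starts were given to the nearest 1 kb, on chromosome 15 at 53082000 for ONECUT1 and 68112000 for SKOR1, on chromosome 18 at 55103000 for ONECUT2 and 44775000 for SKOR2, and on chromosome 19 at 1754000 for ONECUT3.

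The cells were HEK293, an established line of human embryonic kidney origin, transduced with lentivirus, selected with 0.5 mg/ml G418 and given 1 µg/ml doxycycline to induce a histone H3.1 that was either unmutated (H3.1-WT) or carried K27M (H3.1-K27M). Each genotype had 1 CUT&RUN library with an EZH2 antibody and 1 with the anti-rabbit HRP secondary antibody alone as background, from 200000 cells per reaction. All groups share the line, the selection and the doxycycline, and the cells keep their own histone genes beside the introduced one. The sources used here do not say whether the transduced cells were a pool or a clone. The libraries called H3.1-K27M here bear titles that read H31, and the mutation comes from their genotype label. With 1 library per group, no difference between genotypes has a replicate check, and the depth behind the peaks is unknown. A peak missing from a list was not called there, which does not show that EZH2 was absent.

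EZH2 is the enzyme of Polycomb repressive complex PRC2 and places methyl groups on lysine 27 of histone H3, where K27M has a methionine instead. PRC2 typically lies over CpG-rich starts of developmental regulators that are silent in a cell, where it can spread into broad domains. The ONECUT genes encode transcription factors with a cut domain and a homeodomain. ONECUT1, also called HNF6, is known for liver and pancreas development as well as retina and neurons, ONECUT2 is its close relative with overlapping roles, and ONECUT3 is known mainly from the nervous system. SKOR1 and SKOR2 encode corepressors of the SKI family, SKOR1 a partner of LBX1 in the dorsal spinal cord and SKOR2 a factor of cerebellar Purkinje cells. The group is thus not purely neural, and peak lists hold no expression with which to check its label.

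The sequence before the start was available from RefSeq (GRCh38.p14) for 4 of the 5 genes, all but ONECUT3. Over the 250 bases upstream of the start, the dinucleotide CG, which reads the same on both strands, occurred 37 times in ONECUT1, 20 times in ONECUT2, 17 times in SKOR1 and 14 times in SKOR2. The median over 35114 RefSeq promoters was 11, and 4.00%, 32.4%, 39.0% and 44.8% of them held at least as many, in that order of genes. The members at the ends of this order, with the most and the fewest CG, are shown to let the difference be seen, with CG in capitals. ONECUT1 lies at chr15:52790337-52790586 on the minus strand and SKOR2 at chr18:47251661-47251910 on the minus strand, both in GRCh38, which is not the build of the peaks.
ONECUT1: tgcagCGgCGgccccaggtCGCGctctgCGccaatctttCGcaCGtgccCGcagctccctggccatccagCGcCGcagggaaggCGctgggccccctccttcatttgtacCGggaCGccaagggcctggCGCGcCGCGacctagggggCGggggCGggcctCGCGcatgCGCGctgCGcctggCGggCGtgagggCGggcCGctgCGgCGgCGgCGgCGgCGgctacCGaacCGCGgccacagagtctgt
SKOR2: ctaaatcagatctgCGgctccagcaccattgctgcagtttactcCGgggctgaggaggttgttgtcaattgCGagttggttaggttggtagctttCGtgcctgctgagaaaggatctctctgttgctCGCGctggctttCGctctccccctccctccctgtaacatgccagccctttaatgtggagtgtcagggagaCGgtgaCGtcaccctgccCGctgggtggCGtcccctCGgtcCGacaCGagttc
The ONECUT1 stretch has a run of CGG triplets toward the start and a GC content of 76.8%. The SKOR2 stretch has a GC content of 58.0%, equal to the median of all promoters, and its CG are more scattered.

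The loci were covered very unequally. SKOR2 and ONECUT3 carried domains of EZH2 spanning the start, SKOR1 a shorter strong peak beside its start, ONECUT2 narrow peaks on either side of it, and ONECUT1 weak peaks. Of the 60 kb around each start, peaks covered 29179 bases at SKOR2 in H3.1-WT against 26919 in H3.1-K27M. At ONECUT3 they covered 21557 and 20208 bases. At SKOR1 the lengths were 9846 and 5942 bases, at ONECUT2 4207 and 3183, and at ONECUT1 5385 and 1055. SKOR2 and ONECUT3 together held 72.3% of the covered length of the 5 loci in H3.1-WT against 82.2% in H3.1-K27M. In H3.1-K27M the order from ONECUT1 up to ONECUT2, SKOR1 and SKOR2 ran opposite to the number of CG upstream of the start. In H3.1-WT it did not, since ONECUT1 with 37 CG had more covered length than ONECUT2 with 20, and both orders describe only 4 genes. The CG were counted upstream of RefSeq starts in GRCh38, and the coverage around the starts given in hg19. For SKOR1 these starts may differ, as described below.

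**Figure D1:**
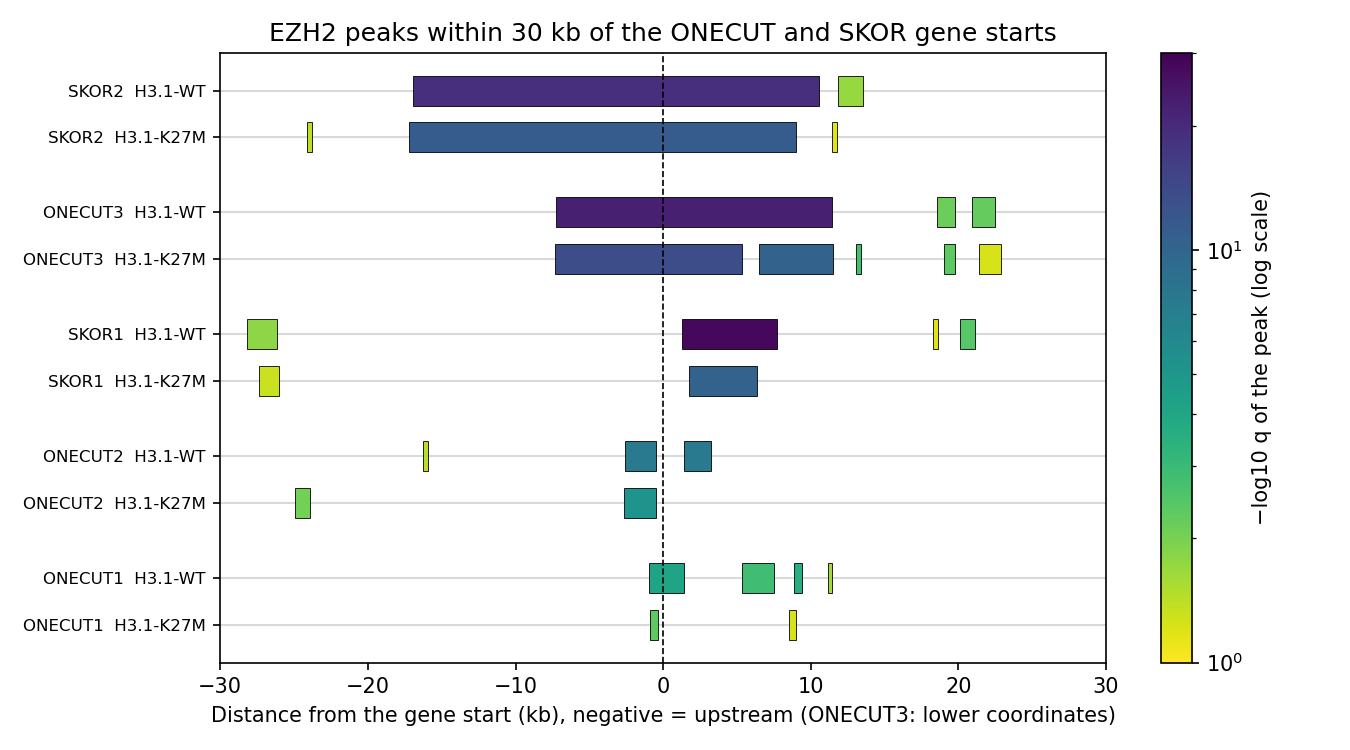
Each box is 1 peak, placed by its distance in kb from the gene start (dashed line; negative is upstream, or lower coordinates for ONECUT3) and coloured by its −log10 q on a log scale, with a row per gene and genotype. The SKOR2 and ONECUT3 domains span the start in both genotypes, while at ONECUT2 the peak downstream of the start appears in H3.1-WT alone.

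At SKOR2 a single peak covered the start in each genotype. In H3.1-WT it lay on chromosome 18 from 44764442 to 44791974 over 27533 bases, and its fold enrichment was 9.51 and its −log10 q 19.1. In H3.1-K27M it ran from 44766017 to 44792228, 26212 bases, with a fold enrichment of 7.27 and a −log10 q of 11.3. Fold enrichment is the linear ratio of EZH2 signal over background, and it and the q value are those of the authors' peak caller. This domain was ranked 1 by width among H3.1-WT peaks, and its counterpart 3 among H3.1-K27M peaks, while by fold enrichment they ranked 217 and 96. The domain reached farther upstream of the start than downstream, 17.0 against 10.6 kb in H3.1-WT and 17.2 against 8.98 kb in H3.1-K27M. Its upstream edges lay 254 bases apart between genotypes and its downstream edges 1575 bases apart.

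At ONECUT3 the H3.1-WT list had 1 peak over the start, on chromosome 19 from 1746709 to 1765417, with a width of 18709 bases, a fold enrichment of 9.62 and a −log10 q of 22.3. The H3.1-K27M list had 2 peaks over the same stretch, one of 12666 bases (1746673 to 1759338, fold enrichment 8.11, −log10 q 13.6) that held the start and one of 4965 bases (1760517 to 1765481, 7.22 and 10.3). A gap of 1178 bases parted them. The outer edges of the domain lay only 36 and 64 bases apart between the genotypes. The gap accounts for all the difference in covered length within the first 10 kb on the higher-coordinate side, 10000 against 8822 bases. Farther along, peaks of 1271 and 1577 bases in H3.1-WT were each met by a H3.1-K27M peak, of 706 and 1535 bases, and a further H3.1-K27M peak of 336 bases had no counterpart.

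SKOR1 had the member peak with the highest fold enrichment in H3.1-WT. It lay on chromosome 15 from 68113248 to 68119697, spanned 6450 bases and had a fold over background of 10.8 at a −log10 q of 27.7. Its H3.1-K27M counterpart, from 68113746 to 68118341, spanned 4596 bases, had a fold enrichment of 6.77 and a −log10 q of 10.4, and lay wholly inside it. Among the member peaks of H3.1-K27M this fold enrichment stood below both domain peaks of ONECUT3 and the wide peak of SKOR2. Both peaks ranked high in their lists, 135 of 31077 and 133 of 35016 by fold enrichment. They began 1.25 and 1.75 kb downstream of the start used here. In RefSeq's GRCh38 models the SKOR1 start is 5.17 kb farther from the ONECUT1 start than in the positions used here. A start moved downstream by that spacing lies inside the peak in both genotypes. The starts of SKOR2 and ONECUT2 on chromosome 18, and that of ONECUT3, had no such check. A weak peak 26 to 28 kb upstream was called in both genotypes, with a −log10 q of 1.78 and 1.31, and peaks of 359 and 1059 bases downstream were in H3.1-WT alone.

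ONECUT2 had a pair of peaks around its start in H3.1-WT, similar in strength. The upstream one (chromosome 18, 55100411 to 55102482, 2072 bases) had a fold enrichment of 5.06 and a −log10 q of 7.45, and the downstream one (55104420 to 55106233, 1814 bases) 5.42 and 7.49. The H3.1-K27M list held the upstream peak at nearly the same place, from 55100348 to 55102482 (2135 bases, fold enrichment 5.07, −log10 q 5.13), and no peak within 30 kb downstream. The start itself lay outside the peaks, with the nearest edge 0.518 kb away, about the precision of the start. The remaining peaks, 321 bases in H3.1-WT and 1048 bases in H3.1-K27M, lay at different places 16 to 25 kb upstream.

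The peaks of ONECUT1 all stayed below a −log10 q of 5 in each list. The H3.1-WT peak over its start (chromosome 15, 53080611 to 53082989, 2379 bases) had a fold enrichment of 4.68 and a −log10 q of 4.13. In H3.1-K27M a peak of 559 bases (53082350 to 53082908) lay wholly inside it, with a fold enrichment of 3.93 and a −log10 q of 2.33, on the upstream side of the start. Of the other 3 H3.1-WT peaks, which lay 5 to 11 kb downstream, 1 was touched by a H3.1-K27M peak, sharing 180 bases.

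**Figure D2:**
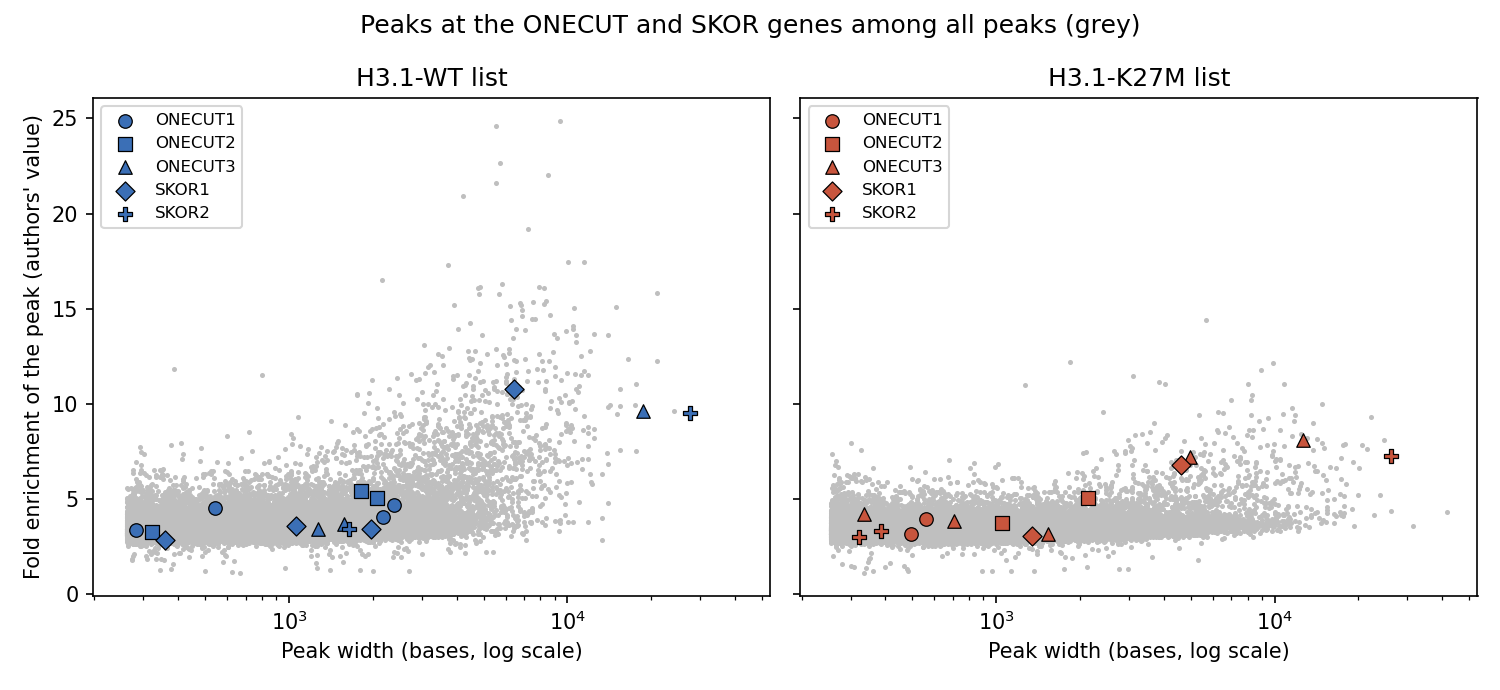
Each point is a peak, by its width in bases (log axis) and its fold enrichment as the authors' caller gave it, with the peaks at the 5 genes coloured and all others in grey, 1 panel per genotype. The SKOR2 peaks of 27533 and 26212 bases stand near the right edge at folds of 9.51 and 7.27, and most other member peaks lie in the dense low part.

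Wide and strong peaks were more frequent at these genes than over the lists, which for H3.1-WT follows from the choice of loci. The H3.1-K27M values are not free of that choice. Its wide peaks are the SKOR2 and ONECUT3 domains, with 99.0% and 99.7% of their length inside the H3.1-WT peaks. Nothing is therefore read from the excess in either list. Peaks at least 5 kb wide numbered 3 of 16 in H3.1-WT (SKOR1, SKOR2 and ONECUT3), against 1.77% of all its peaks, and 2 of 14 in H3.1-K27M (SKOR2 and ONECUT3), against 2.45%. Peaks whose −log10 q reached 5, called strong here, were present at 4 of 5 loci in each genotype, all but ONECUT1. The q values run lower in the H3.1-K27M list, where 654 peaks are strong against 2107, so each count is set beside its own list. Over 48007 windows of 60 kb tiling the 22 autosomes, 4.18% held such a peak of H3.1-WT, 1.31% one of H3.1-K27M and 1.09% one of each. As much coverage as at SKOR2 was reached by 3 of these windows in H3.1-WT against 31 in H3.1-K27M, and as much as at ONECUT3 by 13 and 95. For ONECUT1 the H3.1-K27M coverage was matched or passed by 16.0% of windows. These windows are fixed tiles that can cut a domain and that include the members' own regions. The members' windows are centred on the starts, which can raise their coverage against the tiles.

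The next comparison asked how far the genotypes shared coverage. Over the 5 loci, peaks covered 70.2 kb in H3.1-WT against 57.3 kb in H3.1-K27M, a ratio of 0.817, and 53.9 kb lay under peaks of both. The shared part was 76.8% of the H3.1-WT length and 94.1% of the H3.1-K27M length, against 34.2% and 28.2% over the whole lists. The loci were chosen for wide H3.1-WT peaks, which by itself raises the share of H3.1-K27M length that falls under them. Nor is the H3.1-WT share set beside a like value. SKOR2 and ONECUT3 hold 72.3% of that length, and all H3.1-WT peaks at least 5 kb wide had a median of 76.1% covered in H3.1-K27M. Nothing is therefore read from the distance to the whole lists. By locus, the share of H3.1-WT length also covered in H3.1-K27M was 89.8% at ONECUT3, 89.0% at SKOR2, 58.7% at SKOR1, 49.3% at ONECUT2 and 13.7% at ONECUT1. The domain loci SKOR2 and ONECUT3 thus shared most of their length and ONECUT1 little of it.

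**Figure D3:**
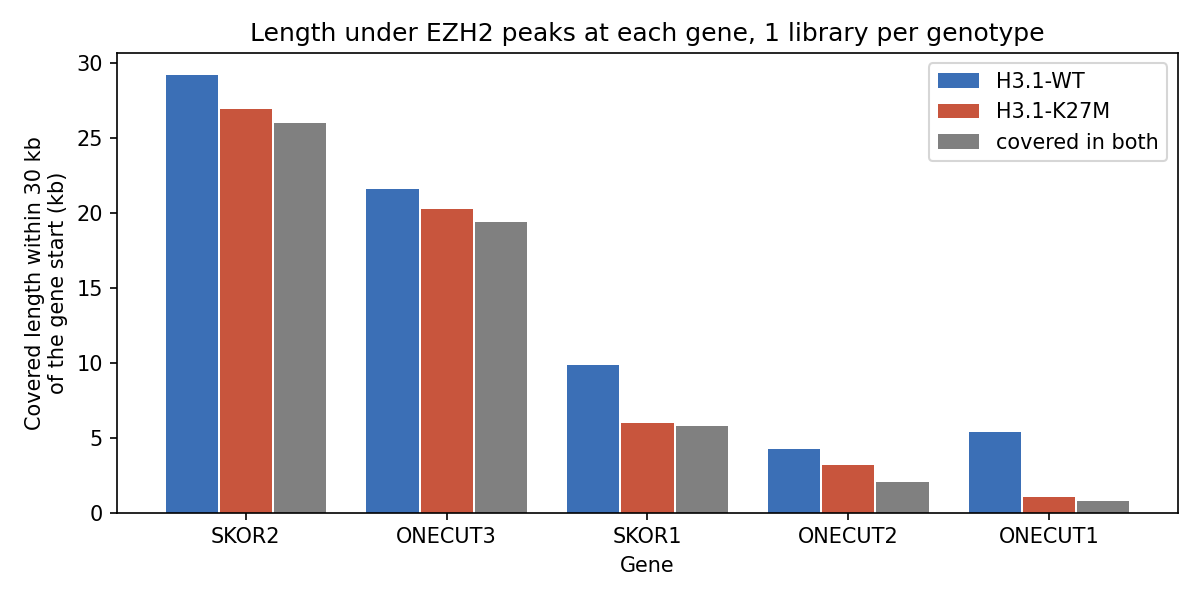
Bars give the length in kb under peaks within 30 kb of each start for H3.1-WT, for H3.1-K27M and for both, from 1 library per genotype and so without error bars. The H3.1-K27M bar is lower at every gene, slightly at SKOR2 (26919 of 29179 bases) and most at ONECUT1 (1055 of 5385).

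All 5 loci had less covered length in H3.1-K27M, by different amounts. Among 22577 autosomal windows with a peak in either list 61.7% had less, and among those with at least 5000 covered bases in H3.1-WT 63.2%. Choosing loci for wide H3.1-WT peaks favours a lower length in H3.1-K27M, so the count of 5 is a description. The ratio of H3.1-K27M to H3.1-WT was 0.937 at ONECUT3, 0.923 at SKOR2, 0.757 at ONECUT2, 0.603 at SKOR1 and 0.196 at ONECUT1. Of the 4 loci with at least 5000 covered bases in H3.1-WT, ONECUT1 and SKOR1 were lower by 1.5 times or more and none was higher by as much. Among the 1108 autosomal windows with such coverage, 44.2% were lower and 17.1% higher by 1.5 times, and the median ratio was 0.752 with quartiles of 0.377 and 1.23. The members' count of 2 of 4 was thus near the background, and ONECUT1 alone lay outside the quartiles. Seen from the other side, of the 3 loci with at least 5000 covered bases in H3.1-K27M none had less in H3.1-WT by 1.5 times, against 74.3% of 1791 windows, and nothing is read from this count because high H3.1-WT coverage entered the choice.

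By number, a H3.1-K27M peak overlapped 9 of the 16 H3.1-WT peaks (56.2%), where the whole list has 36.0%. Of the H3.1-K27M peaks, 10 of 14 (71.4%) were overlapped, where the whole list has 31.6%. Peaks of 1 locus are not independent, and the choice of loci with wide H3.1-WT peaks fixes part of both counts, so nothing is read from the differences. Of the strong peaks, those overlapped were 4 of 5 for H3.1-WT and 5 of 5 for H3.1-K27M, against 83.5% and 95.9% of all strong peaks, so these counts are close to the background. The exception was the downstream peak of ONECUT2. The 4 H3.1-K27M peaks without a counterpart were 322 to 1048 bases wide with a −log10 q of at most 2.77.

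The wide peaks of SKOR1, SKOR2 and ONECUT3 were then set beside all 549 H3.1-WT peaks at least 5 kb wide. The share of their length covered in H3.1-K27M was 94.3% for SKOR2, 93.7% for ONECUT3 and 71.3% for SKOR1. The median of all such peaks was 76.1%, with quartiles of 48.9% and 95.9%, so the 3 peaks lay within the middle of the distribution. In the other direction the wide H3.1-K27M peaks of ONECUT3 and SKOR2 had 99.7% and 99.0% of their length in the H3.1-WT list. These shares are a description, because the wide H3.1-WT peaks at these genes entered the choice.

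**Figure D4:**
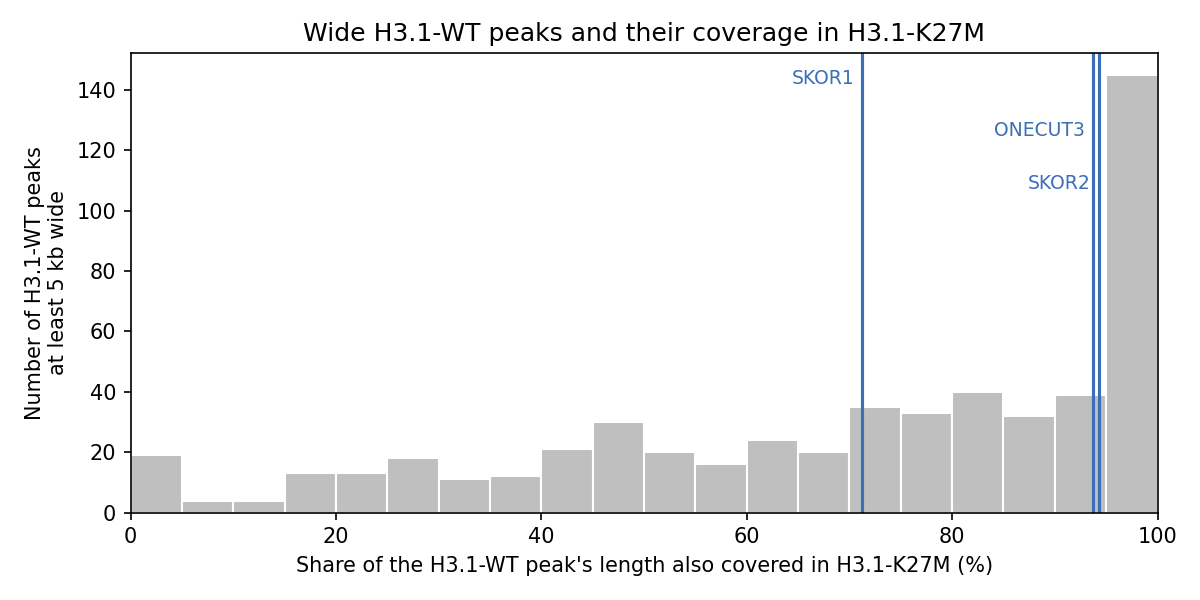
The grey bars count the H3.1-WT peaks at least 5 kb wide (549 in all) by the share of their length, in percent, also covered in H3.1-K27M, in bins of 5 percentage points. Lines mark SKOR1 at 71.3%, ONECUT3 at 93.7% and SKOR2 at 94.3%, all within the quartiles of 48.9% and 95.9%.

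The position of the coverage was compared last. Within 10 kb of the starts peaks covered 52.7% of bases in H3.1-WT against 42.9% in H3.1-K27M, from 10 to 30 kb away 8.72% and 7.19%, and from 30 to 100 kb away 2.53% and 2.29%. Over all autosomes it was 1.15% and 1.20%. The pooled values are carried by SKOR2 and ONECUT3. ONECUT2 had 19.4% and 10.7% within 10 kb, 0.802% and 2.62% from 10 to 30 kb, and more again from 30 to 100 kb, at 6.93% and 7.32%. ONECUT1 had 25.5% and 5.28% within 10 kb, 0.708% and 0% from 10 to 30 kb, and 1.00% and 1.71% beyond. At the edge of the 30 kb limit, the outermost member peak began 28.2 kb from a start (SKOR1, H3.1-WT, −log10 q 1.78). The nearest peaks left out lay 32.7 and 34.2 kb from SKOR2 in H3.1-K27M, with a −log10 q of 1.18 and 1.27.

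Pooled over the 5 loci, the lower coverage in H3.1-K27M lay mostly on the downstream side of the starts. This split by side was made after the values were seen, and ONECUT3, whose strand was not in the table used, was read from lower to higher coordinates. Within 10 kb downstream, covered length was lower in H3.1-K27M at all 5 loci. It was 4113 and 496 bases at ONECUT1 in H3.1-WT and H3.1-K27M, 1814 and 0 at ONECUT2, and 6450 and 4596 at SKOR1. At ONECUT3 it was 10000 and 8822 bases and at SKOR2 10000 and 8984. At both of these, H3.1-WT covered all 10000 bases, so H3.1-K27M could only be equal or lower. They are also the loci whose wide H3.1-WT peaks entered the choice. The count of 5 is therefore a description, with no share over other gene starts to set beside it. The SKOR2 difference depends on a start given to the nearest 1 kb. The H3.1-K27M edge lay 8.98 kb from it, near the 10 kb limit. Within 30 kb downstream SKOR2 had 12205 and 9306 bases. Together the 5 loci had 32377 against 22898 bases within 10 kb downstream, a ratio of 0.707. Within 10 kb upstream it was 20353 against 20022 bases, a ratio of 0.984. There ONECUT1 had 989 and 559 bases, ONECUT2 2072 and 2135, ONECUT3 7292 and 7328, and SKOR1 0 in both. SKOR2 was covered over all 10000 bases in both, so no difference could show within that reach. The SKOR1 values rest on the start used: with it moved by the 5.17 kb, SKOR1 had 3926 and 3428 bases upstream and 2524 and 1168 downstream. The ratios over the 5 loci were then 0.966 upstream and 0.684 downstream. With the starts as given, ONECUT1 alone held 3617 of the 9479 bases by which H3.1-K27M was lower within 10 kb downstream. Without ONECUT1 the upstream ratio was 1.01 and the downstream ratio 0.793. The same split over other genes was not made here, so whether it is particular to these genes was not tested.

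**Figure D5:**
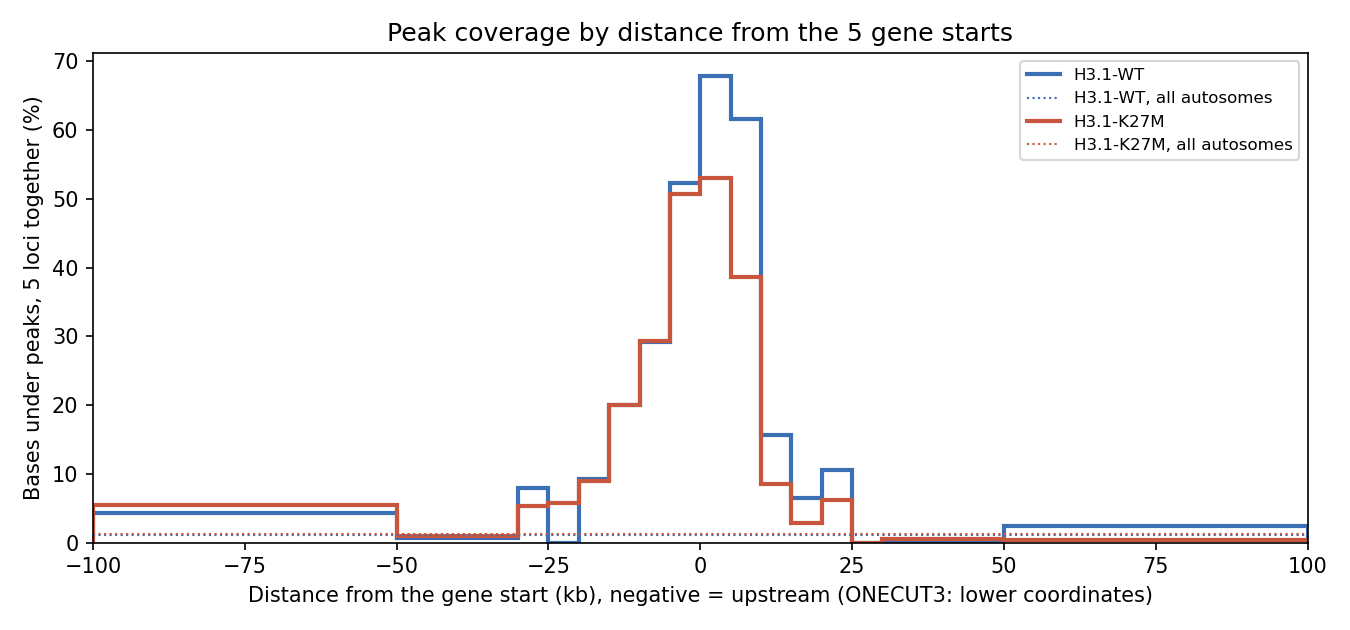
Lines give the percentage of bases under peaks over the 5 loci together, by distance in kb from the gene start (negative is upstream, or lower coordinates for ONECUT3), in bins of 5 kb within 30 kb and wider bins beyond, with dotted lines for all autosomes. The lines lie close together from −20 to 0 kb, and from 0 to 10 kb the H3.1-K27M line is lower, at 53.0% and 38.6% against 67.8% and 61.7%.

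Other genes lie near some of these genes, so a peak within 30 kb of a start need not belong to the named gene. In RefSeq's GRCh38 models, ONECUT2 had 0 other annotated genes within 30 kb of its body. ONECUT3 had ATP8B3 and 1 noncoding gene, and SKOR1 had MAP2K5 and its antisense gene SKOR1-AS1 among 5. ONECUT1 had 3 noncoding genes, and SKOR2 had IER3IP1, a pseudogene and a noncoding gene. Distance was counted from the gene body, so a gene listed here need not reach the 30 kb around the start. SKOR2 is 45492 bases long on the minus strand, and IER3IP1 lies on its low-coordinate side, that of its end.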

How the data were processed

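EZH2 was mapped by CUT&RUN in 4 libraries, 1 per genotype and antibody. The authors deposited a broad peak list for either genotype. Its name and its peak names cite a single EZH2 and HRP library, so by these names samples were not pooled for calling. Per the submitters' processing notes the build was hg19, and the tools included MACS2, deepTools, Picard, cutadapt and Bowtie2 (2.3.5.1), with no role or parameter given. Fold enrichments are linear ratios, and −log10 p and −log10 q values are the caller's, both as deposited by the authors. They depend on the depth and scaling of the libraries, which are unknown, and describe, rank or filter peaks within a list. The limit for strong peaks is the same value in both lists but not the same stringency.

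Peaks touching the 30 kb on either side of the 5 starts were taken, and lengths were clipped to those windows. Positions are 1-based in hg19. Overlap meant at least 1 shared base. Background came from 60 kb windows tiling the autosomes (lengths from circlize 0.4.16). No peak ended past a chromosome end. Windows include unsequenced gaps, and no filter for repeats was applied. Interval code was tested on simulated intervals. Named were all 5 genes with, in full, the widest peak, the peak of highest −log10 q and the peak over the start. Strand and promoters came from RefSeq (GRCh38.p14). Among the alternatives, the SKOR1 start was moved by the difference in its spacing from ONECUT1 between RefSeq and the positions used. No hg19 annotation was used, so related genes were not analysed here. Members and lists were chosen with earlier results of these data known. No test between genotypes was made. Analysis used matplotlib 3.10.9, scipy 1.17.1, R 4.3.3, pandas 2.3.3, numpy 2.4.6 and Python 3.11.15.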

Additional observations from a re-analysis of the deposited data

How the results depend on the processing

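The ratio of covered length over the 5 loci, 0.817, ran from 0.772 with peaks within 5000 bases joined to 0.894 for strong peaks, and from 0.741 to 0.868 leaving out 1 locus. The shares of H3.1-WT and of H3.1-K27M length covered in the other list were 78.4% and 96.6% for peaks whose −log10 q reached 2, 88.7% and 99.2% for strong peaks, 80.6% and 99.0% with 10 kb each side, 75.8% and 91.5% with 50 kb, and 72.0% and 93.2% with peaks joined. With equal list lengths the second was 94.6%. Leaving out 1 locus gave 68.2% to 82.1% and 92.0% to 95.8%. The 16 H3.1-WT peaks became 5 when strong ones were kept, 8 with 10 kb each side and 9 when joined. The 14 H3.1-K27M peaks became 9 when a −log10 q of 2 was asked, 5 when strong ones were kept and 7 with 10 kb, and 9 (without ONECUT3) to 12 without 1 locus. Strong peaks numbered 5 in each list and 3 to 5 without 1 locus, the lowest without ONECUT2 in H3.1-WT and without ONECUT3 in H3.1-K27M. Fewer peaks follow from a stricter limit or smaller window by construction; the cause of the other shifts was not tested.

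The downstream ratio of 0.707 ran from 0.622 to 0.793 under the alternatives, all added after seeing the data, including starts moved by 1 kb. The upstream ratio of 0.984 lay on the other side of 1 at 1.01 over 30 kb, among strong peaks (1.005), with starts 1 kb upstream (1.006) and without ONECUT1 (1.005); its lowest value without 1 locus was 0.968. The cause was not tested. No paired analysis was possible because there was 1 EZH2 library of either genotype. The depth of the libraries is unknown and limits every comparison of the lists.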

Other observations

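Peaks that met 1 counterpart each way gave 8 pairs at these genes, and the H3.1-K27M peak was the narrower in 7 of them. Over 9973 such pairs of the whole lists it was narrower in 5665. The loci were chosen with wide H3.1-WT peaks in view, which favours a wider H3.1-WT partner, so nothing is read from the count. The exception was the upstream ONECUT2 peak, with a ratio of 1.03. Its edge nearest the start fell on the same base in both lists, 55102482, and its far edges lay 63 bases apart. Of all pairs, 1.15% shared an edge to the base, and the median of the larger edge distance was 701 bases. The pair was singled out after its values were seen.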
